A study of Mus musculus with 24 samples.

Results

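The genes of the platelet-derived growth factor (PDGF) family, the ligands Pdgfa, Pdgfb, Pdgfc and Pdgfd and the receptors Pdgfra and Pdgfrb, were followed through bulk RNA-seq of mouse liver macrophages, hepatic endothelial cells (ECs) and whole liver. They were chosen by gene symbol. All 6 were found among the 48820 entries of each of the 4 count tables, and all 6 passed the filter on low counts in every comparison made here.

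PDGFs are secreted dimers that act on a pair of receptor tyrosine kinases carried mainly by mesenchymal cells. PDGF-A and PDGF-C chains act mainly through PDGFRα, PDGF-B through both receptors, and PDGF-D mainly through PDGFRβ. PDGF-C and PDGF-D are secreted in a latent form and must be cut by a protease before they bind. In the liver, PDGF-B is known as a mitogen and attractant of hepatic stellate cells (HSCs), and elsewhere endothelial PDGF-B recruits pericytes to vessels.

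The mice are labelled C57BL/6 (C57BL/6J in the study's methods), and each of the 8 groups held 3 libraries. In Gdf2/Bmp10 HSC-KO mice the genes of the ligands GDF2 (BMP9) and BMP10 were floxed and deleted by Lrat-Cre, which is active in HSCs. These mice were compared with mice titled BMP9/10 control for macrophages and control for ECs and liver. The same controls are also labelled WT, and the labels do not give their floxed or Cre alleles. In Smad4 cKO mice a floxed Smad4, the shared mediator of BMP and TGF-β signals, was deleted by Vav1-Cre, which is active in all blood cells and not in Kupffer cells alone, and these mice were compared with mice labelled Smad4FF. Macrophages (CD45+ Ly6C- CD64+ F4/80+) and ECs (CD45- CD31+) were sorted at 8 to 10 weeks of age, and whole liver was taken at 12 weeks. Libraries were described by the study as independent biological replicates, and p-values here measure the spread between them. From 3 mice both a macrophage and an EC library were made: 1 control mouse gave macrophage replicate 2 and EC replicate 3, and 2 HSC-KO mice gave macrophage replicates 2 and 3 and EC replicates 3 and 1.

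Each library held 60911527 to 110879155 counts. In whole liver of HSC-KO mice Gdf2 fell by 2.55 and Bmp10 by 4.07 on the log2 scale (adjusted p = 0.0135 and 0.00657, edgeR's quasi-likelihood test), and Smad4 fell by 1.39 in Smad4 cKO macrophages (adjusted p = 0.00234). The marker lists of macrophages, ECs and hepatocytes took 2.63 to 5.69% of the counts of macrophage libraries, 1.71 to 2.06% of those of EC libraries and 11.5 to 18.3% of those of liver libraries, respectively. Within the macrophage libraries, the macrophage list was lower in both mutants than in their controls. By Xist and Y-linked counts the Smad4 libraries were all male, the liver libraries were all female except HSC-KO replicate 3, and the other groups held both sexes. In control ECs Dnase1l3 alone took up to 20.4% of the counts, against 5.57% in EC HSC-KO replicate 1. The scaling between libraries was therefore varied for the tests of the 6 members and for the counts of all genes called. Levels in TPM, shares and correlations were not computed under another scaling.

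In the genome build GRCm38 (GENCODE annotation), Pdgfa lies at chr5:138976014-138997370 on the minus strand and Pdgfra at chr5:75152292-75198215 on the plus strand. Pdgfb lies at chr15:79995874-80014977 on the minus strand, Pdgfc at chr3:81036416-81214040 on the plus strand and Pdgfd at chr9:6168584-6378850 on the plus strand. Exons of Pdgfa overlap those of the antisense gene 6330403L08Rik, which held 91 to 466 counts per library against 220 to 2859 for Pdgfa. The use of strand in the counting was not given in the sources used here, so the reads of the 2 genes could not be told apart. The antisense genes overlapping Pdgfc and Pdgfra (Gm16000, Gm42802 and Gm42803) held 0 counts in every library.

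Promoter windows were matched by symbol for 4 of the 6 members (Pdgfa, Pdgfc, Pdgfd and Pdgfra). Those of Pdgfc and Pdgfd are shown because these ligands were each abundant in 1 sorted cell type and low in the other. They are the 250 bases before the RefSeq transcription start, with the Smad box GTCTG, or its reverse complement CAGAC, in capitals (RefSeq, GRCm38.p6, plus strand for both, chr3:81036166-81036415 for Pdgfc and chr9:6168236-6168485 for Pdgfd):
Pdgfc: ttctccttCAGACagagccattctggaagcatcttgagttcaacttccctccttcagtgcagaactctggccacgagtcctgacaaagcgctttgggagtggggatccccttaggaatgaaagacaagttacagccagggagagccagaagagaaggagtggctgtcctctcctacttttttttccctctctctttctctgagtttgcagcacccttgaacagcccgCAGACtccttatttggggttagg
Pdgfd: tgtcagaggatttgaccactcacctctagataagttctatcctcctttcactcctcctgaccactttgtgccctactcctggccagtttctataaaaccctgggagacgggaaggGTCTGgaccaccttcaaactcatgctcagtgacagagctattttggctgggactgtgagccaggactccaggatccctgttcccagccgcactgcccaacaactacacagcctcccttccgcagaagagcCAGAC
Both windows held the Smad box 2 times, the Pdgfra window held it 1 time and the Pdgfa windows 0 times. On either strand it was found in 42.2% of all 32851 promoter windows of that length. The palindromic BMP response core GGCGCC was in 0 of these windows and in 9.59% of all. These are matches of letters only, and no binding was measured.

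To learn which cell expressed each ligand, levels were first compared as transcripts-per-million values (TPM), computed here from the counts and the exon length so that genes could be compared with each other. In control ECs Pdgfd was the most abundant ligand mRNA, with 33.4 ± 3.47 TPM (mean ± SD, n = 3 as for every group), ahead of Pdgfb with 7.54 ± 3.69, Pdgfa with 4.65 ± 1.17 and Pdgfc with 0.211 ± 0.0598. In control macrophages of the Gdf2/Bmp10 experiment the order was different. Pdgfc was at 23.1 ± 5.04 TPM, Pdgfb at 15.7 ± 8.39, Pdgfa at 12.9 ± 2.51 and Pdgfd at 0.268 ± 0.0699. In these macrophages the range of Pdgfb overlapped those of Pdgfc and Pdgfa, and in control ECs the ranges of Pdgfb and Pdgfa overlapped. In Smad4 control macrophages the mean of Pdgfb (11.8 ± 1.75 TPM) was above that of Pdgfc (9.50 ± 0.722), with overlapping ranges. In control whole liver all 4 ligands were low, from 1.31 ± 0.143 TPM for Pdgfb to 3.64 ± 1.97 for Pdgfa. In bulk samples, fewer cells of a type and less RNA per cell cannot be told apart. The receptors, in contrast, were higher in whole liver than in the sorted cells. Pdgfrb reached 5.66 ± 1.28 TPM and Pdgfra 1.96 ± 0.164 TPM in control liver, while no sorted library of any genotype exceeded 1.27 TPM for Pdgfrb or 0.314 TPM for Pdgfra.

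**Figure D1:**
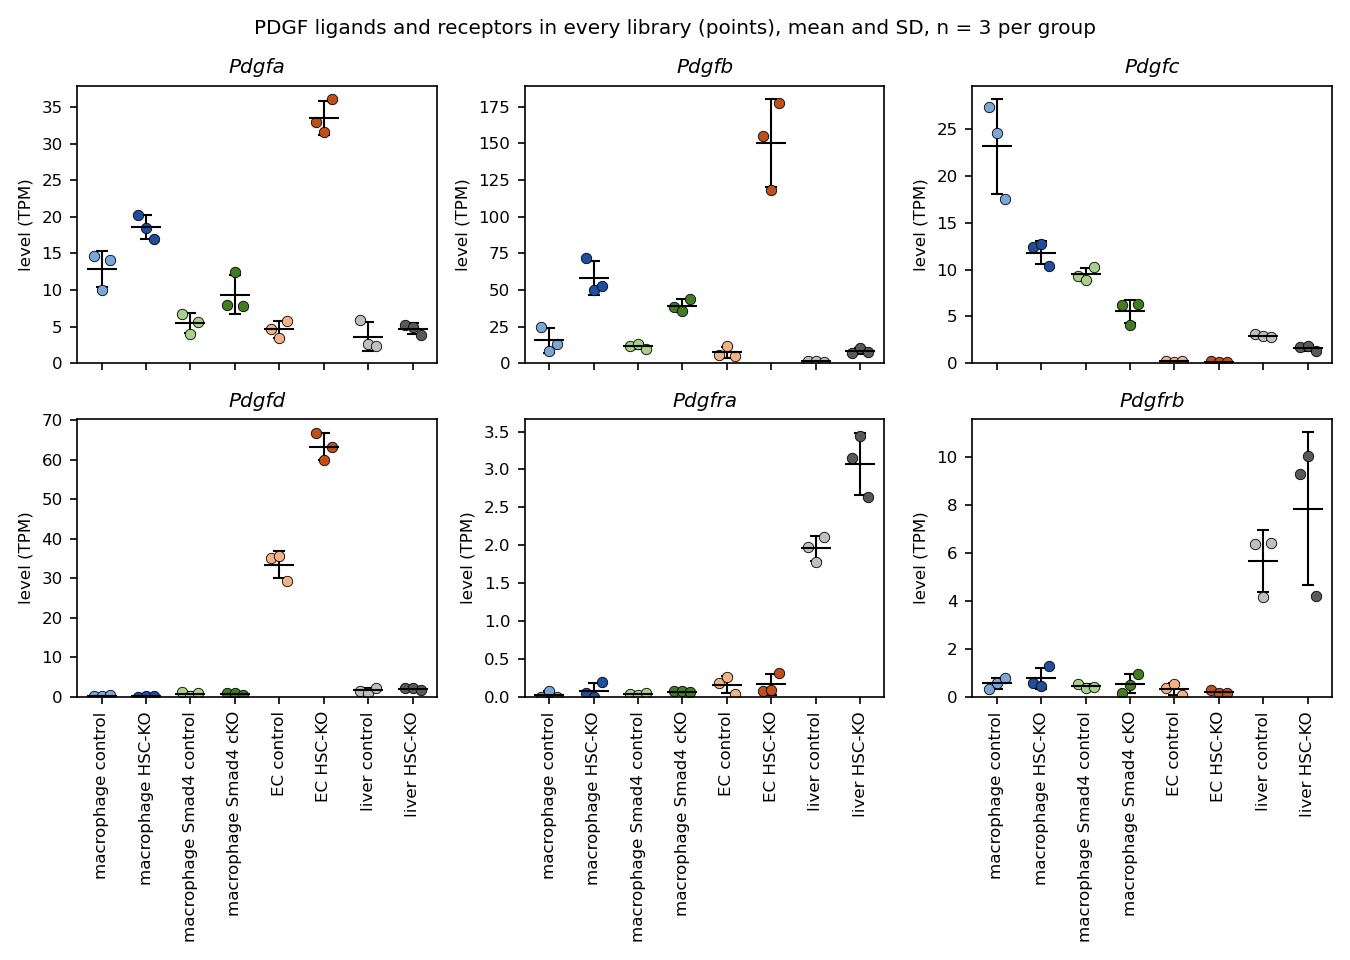
Level of each PDGF ligand and receptor (y axis, TPM, linear, a separate scale per gene) in all 24 libraries (points) of the 8 groups (x axis), with the mean and SD of each group. Pdgfb and Pdgfa were highest in HSC-KO ECs at 150 and 33.5 TPM, Pdgfc in control macrophages at 23.1 TPM, Pdgfd in both EC groups, and the receptors in whole liver.

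The same differences were tested between the control groups, with 1 fit over the 18 libraries of the Gdf2/Bmp10 experiment. A gene was called where edgeR's quasi-likelihood test gave an adjusted p (Benjamini-Hochberg over all genes tested) under 0.05 and the groups differed by more than 1 on the log2 scale. Between control ECs and control macrophages 1 member was called higher in ECs, where 16.3% of all genes were, and 3 were called lower, where 16.2% of all genes were. Pdgfd was 6.49 ± 0.52 (log2 ± SE) higher in ECs, with an adjusted p of 6.26e-08. The difference was -7.23 ± 0.28 for Pdgfc (adjusted p = 6.55e-11), -1.94 ± 0.29 for Pdgfa (5.33e-05) and -1.51 ± 0.33 for Pdgfb (0.00163), all lower in ECs. In these control groups Pdgfc and Pdgfd were each at high level in 1 of the 2 sorted populations and at 33 counts or fewer per library in the other. The residual Pdgfc of control ECs (15 to 33 counts per library) stood beside macrophage markers at 0.0271 to 0.0322% of EC counts. The residual Pdgfd of control macrophages (23 to 26 counts) stood beside EC markers at 0.0561 to 0.0811% of macrophage counts, and the part of those cells in these reads was not tested. The receptors differed between the 2 populations by 2.00 ± 1.23 for Pdgfra and -1.31 ± 0.61 for Pdgfrb (ECs minus macrophages) and were not called (adjusted p = 0.205 and 0.0984). Both were called when 1 library was left out, Pdgfra without macrophage control replicate 2, the only control macrophage library with a count (27), and Pdgfrb at a log2 difference of -1.92 without EC control replicate 2. Stellate markers took 0.0163 to 0.0255% of control EC counts and 0.0103 to 0.0180% of control macrophage counts. In control macrophages Ecm1 was at 93.7 to 101 TPM and the other stellate markers at 14.1 TPM or less. The part of stellate cells in the receptor reads was not tested.

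Against control whole liver, 2 members were called higher in control ECs (24.8% of all genes were) and 3 lower (30% of all genes were). Pdgfd was higher by 3.73 ± 0.44 and Pdgfb by 1.85 ± 0.34, whereas the difference was -4.46 ± 0.25 for Pdgfc, -4.33 ± 1.20 for Pdgfra and -4.84 ± 0.68 for Pdgfrb. Pdgfa did not differ beyond its spread (log2 difference -0.31, 95% interval -0.92 to 0.29). All 6 members differed between control macrophages and control whole liver, 3 higher (25.1% of all genes were) and 3 lower (31.5% of all genes were). Pdgfb was 3.36 ± 0.36 higher in macrophages, Pdgfc 2.77 ± 0.22 and Pdgfa 1.63 ± 0.29, while Pdgfd was at -2.76 ± 0.46, Pdgfrb at -3.53 ± 0.64 and Pdgfra at -6.33 ± 1.36. The last value rested on the 27 counts of macrophage control replicate 2, since the other 2 control macrophage libraries held 0 Pdgfra counts, which allows up to 3 counts each. Without that replicate the fitted difference was -12.52, a value that is no bound. The sorted cells and the tissue were kept in separate count tables and differed in RNA extraction and, for the liver, in age, so cell source, sort, extraction and table cannot be told apart.

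In ECs of Gdf2/Bmp10 HSC-KO mice Pdgfb and Pdgfa rose and no member fell. These were 2 members called higher where 7.68% of all genes were called higher, and 0 called lower where 6.01% were. The 2 groups did not overlap, in either direction, in 40.4% of all genes tested. Within a comparison, levels are given as counts-per-million values (CPM), scaled between libraries by the trimmed mean of M values (TMM). Pdgfb measured 7.79, 16.3 and 7.05 CPM in control replicates 1 to 3 and 190, 148 and 198 CPM in the HSC-KO replicates. The lowest HSC-KO library was therefore far above the highest control, and the log2 fold change was 4.11 ± 0.36, or 17.3-fold (adjusted p = 0.000319, edgeR's quasi-likelihood test). Pdgfa, whose product acts through PDGFRα, measured 4.65, 3.56 and 6.22 CPM in controls and 30.3, 29.5 and 30.2 CPM in HSC-KO ECs. The 3 HSC-KO values lay within 1 CPM of each other and did not overlap the controls, with a log2 fold change of 2.64 ± 0.22 (6.24-fold, adjusted p = 0.000258). Its antisense neighbour 6330403L08Rik held 258 to 358 counts in control and 158 to 324 in HSC-KO ECs, against 220 to 458 and 2115 to 2859 for Pdgfa. Both calls held without any 1 of the 6 libraries, with log2 fold changes of 3.89 to 4.59 for Pdgfb and 2.46 to 2.87 for Pdgfa.

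Pdgfd, the main ligand mRNA of control ECs, measured 34.9, 37.4 and 32.1 CPM in controls and 62.4, 56.7 and 53.4 CPM in HSC-KO ECs. The groups did not overlap, as in 40.4% of all genes. The log2 fold change of 0.73 ± 0.13 passed the adjusted p threshold (0.00732) but not the fold threshold, so it was not called. Scaled by library size alone it was 1.02 and called, a scaling that moved the median of all genes up by 0.29 in this comparison. Pdgfc was at 0.220 to 0.448 CPM in both groups (log2 fold change -0.45 ± 0.58). Pdgfra (0.122 to 0.873 CPM) and Pdgfrb (0.0951 to 0.986 CPM) overlapped between groups and were not called (adjusted p = 0.904 and 0.504).

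Marker lists of other cells were looked at beside these results. The mural cell and fibroblast list went from 0.00347 to 0.00465% of counts in control ECs to 0.0195 to 0.0272% in HSC-KO ECs, mostly through Kcnj8, a potassium channel gene (15.4 to 23.5 TPM in controls, 159 to 250 in HSC-KO). The pericyte marker Cspg4 was at 0 in all control ECs and at 0.0541 to 0.273 TPM in HSC-KO ECs. Not every gene of this list was apart. Acta2 (log2 fold change 1.44 ± 1.13) and Tagln (0.24 ± 0.34) overlapped between the EC groups and were not called. The platelet list, which covers a further known source of PDGF, lay at 0.000857 to 0.00140% in control and 0.00101 to 0.00127% in HSC-KO ECs, with Gp1bb at 0 in every EC library. The macrophage list was lower in HSC-KO ECs, at 0.00733 to 0.0118% against 0.0271 to 0.0322%. Ly6c2 of the monocyte and neutrophil list went from 0.115 to 0.241 TPM to 75.7 to 95.1 TPM, with S100a8, S100a9 and Retnlg at 0 in every EC library. The part of these cells in the Pdgfb and Pdgfa results was not tested.

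**Figure D2:**
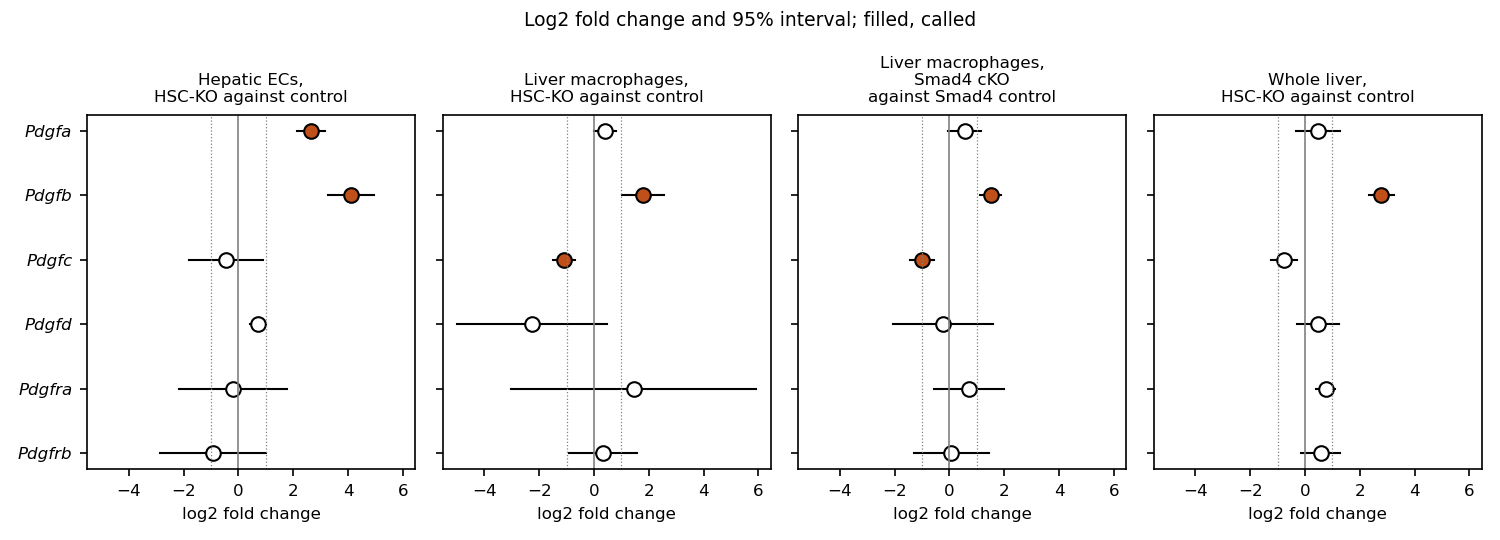
Log2 fold change (x axis, the same scale in each panel) of the 6 members (y axis) in the 4 comparisons of mutant with control, with 95% intervals as lines, dotted lines at the fold threshold of 1, and filled points for called members. Pdgfb was called higher in all 4 panels, from 1.51 in Smad4 cKO macrophages to 4.11 in HSC-KO ECs, and Pdgfc was called lower in both macrophage panels.

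In macrophages Pdgfb rose, as it did in ECs, and Pdgfc was called lower. These 2 calls were made both in Gdf2/Bmp10 HSC-KO mice and in Smad4 cKO mice. In the HSC-KO comparison 1 member was called higher (6.32% of all genes were) and 1 lower (5.34% of all genes were). The groups did not overlap, in either direction, in 40.3% of all genes tested. Pdgfb measured 39.4, 15.1 and 23.6 CPM in control macrophages and 111, 80.0 and 81.7 CPM in HSC-KO macrophages. Control replicate 1 was the highest control and still below every HSC-KO library, and the log2 fold change was 1.80 ± 0.33 (3.49-fold, adjusted p = 0.00888). It lay between 1.53 and 2.23 when any 1 library was left out, and stayed called. Pdgfc measured 52.8, 52.6 and 37.6 CPM in controls and 23.3, 24.7 and 19.6 CPM in HSC-KO macrophages. No HSC-KO library reached the lowest control, and Pdgfc fell by 1.08 ± 0.17 on the log2 scale (adjusted p = 0.00484). That change lay just past the fold threshold. It was -0.99 without HSC-KO replicate 3 and -0.95 with the Xist level, which marks sex, as a covariate, and so was not called in these 2 fits.

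In the Smad4 comparison 1 member was again called higher (2.76% of all genes were) and 1 lower (2.67% of all genes were). The groups did not overlap, in either direction, in 29.4% of all genes tested. Pdgfb measured 22.0, 25.6 and 18.1 CPM in Smad4 controls and 60.4, 56.4 and 70.1 CPM in Smad4 cKO macrophages. The groups stood well apart, with a log2 fold change of 1.51 ± 0.16 (2.85-fold, adjusted p = 0.00177). Pdgfc measured 20.7, 20.8 and 22.97 CPM in Smad4 controls and 11.9, 7.94 and 12.3 CPM in Smad4 cKO macrophages, again without overlap. It fell by 1.005 ± 0.19 on the log2 scale, at the edge of the fold threshold (adjusted p = 0.0205). The Pdgfc call was lost when any library other than Smad4 cKO replicate 3 was left out: the log2 fold change was -1.05 without Smad4 control replicate 1, -1.04 without replicate 2 and -0.97 without replicate 3, and -1.09 without Smad4 cKO replicate 1 and -0.83 without replicate 2, with adjusted p-values of 0.0176 to 0.0883. Scaled by library size alone it was -0.85 and also not called.

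The other members were not called in either macrophage comparison. Pdgfa was higher in every mutant library, at 23.5, 22.1 and 19.6 CPM against 17.3, 13.1 and 18.4 CPM in the HSC-KO experiment and 9.28, 14.8 and 9.28 CPM against 9.19, 5.82 and 7.69 CPM in the Smad4 experiment, with log2 fold changes of 0.42 ± 0.17 (adjusted p = 0.133) and 0.56 ± 0.26 (0.270). In the Smad4 experiment the nearest values, 9.28 and 9.19 CPM, almost met. Groups without overlap, in either direction, were seen in 40.3% and 29.4% of all genes, respectively. Pdgfd was at 0.271 to 0.454 CPM in control and 0 to 0.157 CPM in HSC-KO macrophages (log2 fold change -2.25 ± 1.18, adjusted p = 0.230), with 0 to 26 counts per library. EC markers beside it went from 0.0561 to 0.0811% of counts to 0.00785 to 0.0173%. In the Smad4 experiment Pdgfd measured 1.56, 0.133 and 1.31 CPM in controls and 1.14, 0.965 and 0.430 CPM in Smad4 cKO macrophages (12 to 151 counts, log2 fold change -0.24 ± 0.79, adjusted p = 0.898). EC markers there took 0.0871 to 0.254% of counts in controls and 0.193 to 0.250% in Smad4 cKO. The part of ECs in the Pdgfd reads was not tested. Pdgfra held 0 to 65 counts and Pdgfrb 31 to 236 counts in a macrophage library. Stellate markers took 0.00658 to 0.0222% of the counts of these libraries, and the part of stellate cells in the receptor reads was not tested.

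The platelet list was higher beside Pdgfb in both mutants, going from 0.00478 to 0.00679% of counts to 0.0584 to 0.0986% in HSC-KO and from 0.00520 to 0.00803% to 0.0312 to 0.0451% in Smad4 cKO macrophages. Nearly all of it was 1 gene, the chemokine gene Pf4, which went from 164 to 229 TPM to 2072 to 3510 TPM in HSC-KO and from 167 to 261 TPM to 1072 to 1548 TPM in Smad4 cKO macrophages. The other 7 platelet genes were at most 0.795 TPM in HSC-KO and 0.588 TPM in Smad4 cKO macrophages, with Gp1bb and Gp6 at 0 in every library of both. The monocyte and neutrophil list went from 0.00485 to 0.00640% of counts to 0.00971 to 0.0142% in HSC-KO macrophages and lay at 0.00422 to 0.00552% in Smad4 cKO macrophages, against 0.00432 to 0.00698% in their controls. The macrophage list itself was lower in both mutants. It took 4.13 to 4.54% of counts in control and 2.86 to 3.04% in HSC-KO macrophages. In the Smad4 experiment it took 4.75 to 5.69% in controls and 2.63 to 3.39% in Smad4 cKO macrophages. The part of platelets, monocytes and a changed macrophage population in the Pdgfb and Pdgfc results was not tested.

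Whether the responses differed was tested by interaction terms. Between ECs and macrophages of the HSC-KO experiment, 3 of the 6 members responded more strongly in the positive direction in ECs, where 6.07% of all genes did. The difference of log2 fold changes (ECs minus macrophages) was 2.31 ± 0.47 for Pdgfb (adjusted p = 0.00313), 2.23 ± 0.40 for Pdgfa (0.00140) and 2.94 ± 0.69 for Pdgfd (0.00863). The Pdgfd difference drew on 0 to 26 counts per macrophage library, and was 4.24 without macrophage HSC-KO replicate 2. Pdgfc differed by 0.64 ± 0.33 and was not called. Between the response of macrophages to HSC-KO and to Smad4 cKO, 0 of the 6 members differed by edgeR's quasi-likelihood test, where 2.61% of all genes did in either direction, with 0 at an unadjusted p under 0.05 and 0 by DESeq2. The 95% interval of the difference was -0.53 to 1.21 for Pdgfb and -0.61 to 0.55 for Pdgfc, which for Pdgfb reaches past the fold threshold of 1.

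In whole liver of HSC-KO mice Pdgfb was the 1 member called higher, where 1.03% of all genes were called higher, and 0 members were called lower, where 1.45% of all genes were. The groups did not overlap, in either direction, in 19.7% of all genes tested. Pdgfb measured 2.26, 2.14 and 1.90 CPM in control livers and 12.8, 17.4 and 13.2 CPM in HSC-KO livers. With no overlap and little spread among controls, the log2 fold change was 2.79 ± 0.19 (6.90-fold, adjusted p = 0.000792), which placed Pdgfb at rank 57 by fold among the 177 genes called higher. The other ligands were not called. Pdgfc measured 5.94, 5.99 and 5.44 CPM in controls and 3.79, 3.63 and 2.80 CPM in HSC-KO livers, below every control, with a log2 fold change of -0.76 ± 0.20 (adjusted p = 0.113). Pdgfa (2.79 to 6.85 CPM in controls, 5.13 to 6.93 CPM in HSC-KO) and Pdgfd (1.28 to 2.70 CPM, 2.26 to 2.88 CPM) overlapped between groups. The macrophage list went from 0.0425 to 0.0670% of liver counts to 0.0105 to 0.0174%, beside the lower Pdgfc and the higher Pdgfb. The EC list was also lower, at 0.0447 to 0.0541% in HSC-KO livers against 0.0561 to 0.0664% in controls. The part of fewer macrophages or ECs, or of less RNA in them, was not tested.

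Of the receptors, Pdgfra measured 7.38, 7.17 and 8.12 CPM in control livers and 13.3, 13.6 and 11.3 CPM in HSC-KO livers. The groups did not overlap, as in 19.7% of all genes. The log2 fold change of 0.75 ± 0.14 had an adjusted p of 0.0402 but missed the fold threshold. The adjusted p lay between 0.104 and 0.169 when any library other than HSC-KO replicate 3 was left out, and at 0.0462 without that male replicate. Pdgfrb (chr18:61045150-61085061, plus strand) measured 12.9, 9.19 and 13.6 CPM in controls and 21.4, 21.8 and 9.79 CPM in HSC-KO livers. The male HSC-KO replicate 3 fell within the controls while the other 2 were above them, and the log2 fold change was 0.57 ± 0.31 (adjusted p = 0.529). Without that replicate it was 0.86 (adjusted p = 0.0743), still not called. Marker lists of stellate, mural and fibroblast cells, which are known to carry these receptors, were higher in sum, but not gene by gene. The stellate list went from 0.0378 to 0.0481% of liver counts to 0.0535 to 0.0657%, through Dcn (46.6 to 62.8 TPM in controls, 85.2 to 101 in HSC-KO), Reln (5.42 to 9.89, 13.2 to 15.3) and Colec11 (41.6 to 48.1, 52.9 to 71.7). Des was apart by little (2.57 to 4.38 TPM, 4.52 to 4.93), and its other genes Lrat (4.49 to 13.7 TPM in controls, 5.80 to 9.50 in HSC-KO), Rgs5 (17.8 to 23.8, 12.02 to 24.5), Ecm1 and Hgf overlapped between groups. The mural and fibroblast list went from 0.00456 to 0.00750% to 0.0136 to 0.0150%, mostly through Abcc9 (7.41 to 10.6 TPM in controls, 21.4 to 25.5 in HSC-KO), with Lum, Cspg4 and Kcnj8 also apart, of which Kcnj8 was also higher in HSC-KO ECs. The mural genes Acta2, Tagln and Myh11 overlapped between groups. Their part in the receptor levels was not tested.

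**Figure D3:**
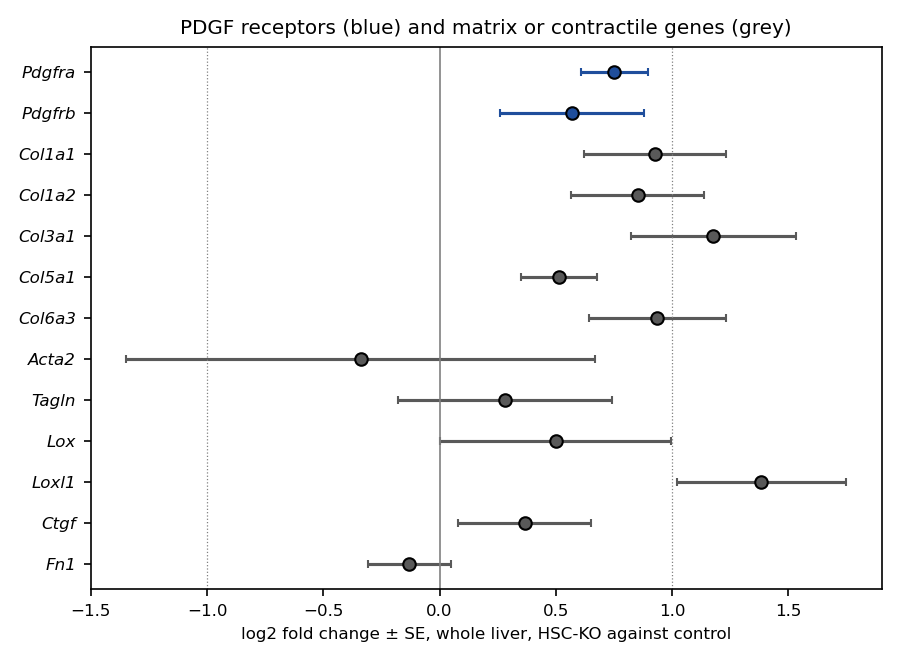
Log2 fold change ± SE (x axis) in whole liver of HSC-KO against control mice for the 2 PDGF receptors (blue) and 11 matrix or contractile genes tested (grey), with dotted lines at the fold threshold. Loxl1 at 1.39 and Col3a1 at 1.18 lay past 1, Acta2 and Fn1 lay below 0, and no gene shown was called by edgeR's quasi-likelihood test, while DESeq2 called Col3a1 and Loxl1.

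Since the 4 ligands differ in the receptor they engage, their shares of the summed ligand TPM were compared as a description. In control ECs Pdgfd made up 73.0% ± 3.19 of ligand mRNA and Pdgfb 16.0% ± 6.10, whereas in HSC-KO ECs Pdgfb made up 60.4% ± 3.89 and Pdgfd 25.9% ± 2.90. In control macrophages Pdgfc led with 45.3% ± 9.85, and in HSC-KO macrophages Pdgfb led with 65.4% ± 3.61 and Pdgfc held 13.4% ± 1.92. In Smad4 control and Smad4 cKO macrophages Pdgfb held 43.0% ± 6.96 and 71.5% ± 4.06, and Pdgfc 34.6% ± 3.42 and 10.0% ± 2.03. In whole liver the Pdgfb share was 14.1% ± 1.98 in control and 50.1% ± 5.08 in HSC-KO mice. In each of the 4 comparisons the Pdgfb share of every mutant library was above that of every control library. The summed ligand level was 45.8 ± 5.32 TPM in control and 247 ± 34.0 TPM in HSC-KO ECs, 52.0 ± 13.2 and 88.8 ± 13.6 in the macrophages of that experiment, 27.5 ± 1.51 and 55.0 ± 3.20 in those of the Smad4 experiment, and 9.48 ± 2.20 and 16.8 ± 2.73 in whole liver. Each share falls where another ligand rises, so the Pdgfd share of HSC-KO ECs was lower than in controls while its level was higher.

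**Figure D4:**
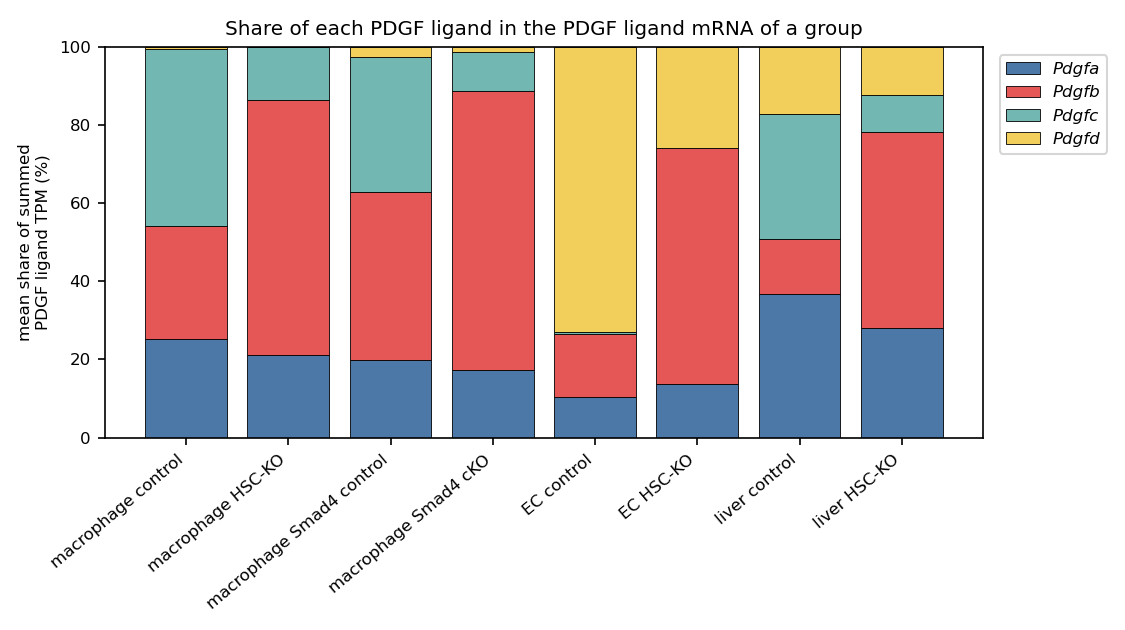
Mean share of each ligand (stacked bars, y axis, percent of the summed TPM of Pdgfa, Pdgfb, Pdgfc and Pdgfd) in the 8 groups (x axis), n = 3 libraries each. Pdgfb took the largest mean share in all 4 mutant groups, 50.1 to 71.5%, and also in Smad4 control macrophages, 43.0%. Pdgfd took 73.0% in control ECs.

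Over all 8 groups the order of levels can be given for each ligand, with neighbours whose ranges overlapped. Pdgfb was highest in HSC-KO ECs (150 ± 29.8 TPM), followed by HSC-KO macrophages (58.3 ± 11.8) and Smad4 cKO macrophages (39.4 ± 4.42), and these 3 did not overlap. Control macrophages (15.7), Smad4 controls (11.8), HSC-KO livers (8.45) and control ECs (7.54) came next with overlapping ranges, and control livers (1.31) were below them all. Pdgfa had the same 2 leading groups, HSC-KO ECs (33.5 ± 2.34 TPM) and HSC-KO macrophages (18.6 ± 1.65), followed by control macrophages (12.9), which overlapped Smad4 cKO macrophages (9.38 ± 2.65). Pdgfc was highest in control macrophages (23.1), and HSC-KO macrophages (11.8 ± 1.23 TPM, the lowest at 10.4) and Smad4 controls (9.50 ± 0.722, the highest at 10.3) were next to each other without overlap. Control macrophages of the 2 experiments differed in Pdgfc although both were controls, a gap between separate count tables that was not tested. Pdgfd was at 63.4 ± 3.46 TPM in HSC-KO ECs and 33.4 in control ECs, with no other group above 2.05 ± 0.330 TPM. For the receptors, HSC-KO livers (3.08 ± 0.410 TPM for Pdgfra, 7.85 ± 3.19 for Pdgfrb) were ahead of control livers, without overlap for Pdgfra and with overlap for Pdgfrb.

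Genes that act on PDGF ligands and below the receptors were described by list. Of 11 genes of ligand processing and binding, 9 were tested in HSC-KO macrophages, where 2 were called higher and 1 lower (6.32% and 5.34% of all genes were), at a median log2 fold change of -0.26 against 0.04 for all genes. Plau, which encodes the protease urokinase, rose from 1.51 ± 0.523 to 8.39 ± 2.62 CPM (log2 fold change 2.48 ± 0.36). Nrp1, a co-receptor for several growth factors, rose from 169 ± 13.1 to 396 ± 32.3 CPM (1.23 ± 0.12). Pdgfrl, which encodes a secreted protein resembling a PDGF receptor, fell by 4.04 ± 0.56, from 14.2 ± 1.95 to 0.862 ± 0.637 CPM. In HSC-KO ECs 9 were tested and 2 were called higher, with none lower (7.68% and 6.01% of all genes were), at a median of 0.39 against 0.00 for all genes. Plat, the gene of tissue plasminogen activator, which cuts PDGF-C, rose from 4.28 ± 0.730 to 24.2 ± 5.08 CPM (2.50 ± 0.22), and the proprotein convertase gene Pcsk5 rose from 0.972 ± 0.655 to 7.07 ± 3.30 CPM (2.87 ± 0.63). In Smad4 cKO macrophages 0 of 8 were called (3 at an unadjusted p under 0.05, 0 by DESeq2), and in whole liver 0 of 10 (3 at an unadjusted p under 0.05, 0 by DESeq2).

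All 16 genes of receptor-proximal signalling, most of which every cell uses, were tested in each comparison. Among them, Nck1, an adaptor that binds phosphorylated receptors, fell by 1.27 ± 0.13 in HSC-KO macrophages, and its relative Nck2 rose by 3.70 ± 0.60 in HSC-KO ECs from 0.215 ± 0.131 to 2.85 ± 1.36 CPM. These were the 1 gene called lower in HSC-KO macrophages (5.34% of all genes were) and the 1 called higher in ECs (7.68% of all genes were). Nck2 was below every control in HSC-KO macrophages (log2 fold change -1.81 ± 0.57, adjusted p = 0.0654) and in Smad4 cKO macrophages (-1.48 ± 0.36, adjusted p = 0.0504), not called by edgeR's quasi-likelihood test and called by DESeq2 in both. DESeq2 called 2 list genes in HSC-KO macrophages, Nck1 and Nck2. Over all genes it called 2490 in HSC-KO and 1327 in Smad4 cKO macrophages. Groups did not overlap, in either direction, in 40.3% and 29.4% of all genes in these comparisons, respectively. No list gene was called by edgeR in Smad4 cKO macrophages (6 at an unadjusted p under 0.05 and 1 by DESeq2) or whole liver (3 and 0). The list medians were -0.22, -0.29, -0.01 and 0.02 in HSC-KO macrophages, Smad4 cKO macrophages, HSC-KO ECs and HSC-KO liver.

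Matrix and contractile genes, which PDGF-responsive mesenchymal cells make, were not called in any of the 4 comparisons by edgeR's quasi-likelihood test. In whole liver 11 of the 12 were tested, 6 had an unadjusted p under 0.05, and 2 were called by DESeq2 (Col3a1 and Loxl1), with a median log2 fold change of 0.51 against -0.01 for all genes. Over all genes DESeq2 called 821 in whole liver. The share of all genes at an unadjusted p under 0.05 was not counted in any comparison. The genes named here were chosen after their values were seen. The collagen genes Col3a1 (36.8 ± 15.9 CPM in control and 83.3 ± 21.8 in HSC-KO, adjusted p = 0.182) and Col1a1 (9.51 ± 3.23 and 18.1 ± 5.34, adjusted p = 0.227) and the crosslinking enzyme gene Loxl1 (2.29 ± 0.825 and 6.00 ± 1.92, adjusted p = 0.121) were each higher in every HSC-KO liver than in any control. The liver groups did not overlap, in either direction, in 19.7% of all genes. The contractile gene Acta2 overlapped between groups (3.73 ± 4.13 and 2.95 ± 1.96 CPM). In HSC-KO macrophages 10 were tested with 2 at an unadjusted p under 0.05 and 2 called by DESeq2 (Col1a2 and Col3a1), in Smad4 cKO macrophages 12 with 2 and 1 (Lox), and in HSC-KO ECs 11 with 0 and 0. Over all genes DESeq2 called 2490, 1327 and 2715 in these comparisons, in that order.

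Across the 24 libraries, the genes whose log2 CPM was most like Pdgfb among 11000 genes were Prdm1 (Pearson r = 0.954), a transcriptional repressor gene, Tspan13 (0.909), Nuak1 (0.887), Ehd4 (0.877) and St8sia4 (0.867). For Pdgfa they were Sipa1l2 (0.903), Traf5 (0.853) and Endod1 (0.844), and Pdgfa and Pdgfb themselves had an r of 0.823. Pdgfc was most like Galnt6, Psd4 and Cd22 (0.982 to 0.983) and Pdgfd most like Hspa12b, Prickle2 and 1810011O10Rik (0.962 to 0.969), and the r between Pdgfc and Pdgfd was -0.906. Pdgfra was most like Reln (0.936), a gene of the stellate marker list, Steap4 (0.924) and Net1 (0.923), and Pdgfrb most like F12, C3 and Kng2 (0.949 to 0.952), genes known for their expression in hepatocytes. The 24 points share their cell source and count table in sets of 6 or 12, and these values are descriptions only.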

How the data were processed

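Reads had been mapped by the authors with HISAT2 to the mouse build mm10 (GRCm38), and they deposited featureCounts counts per gene, raw and not normalized, with 1 table for each of the 4 experiments. Versions, annotation release and strand setting were not given in the sources used here. Library totals were 60911527 to 110879155 counts, and each table held 48820 entries.

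Genes were kept by edgeR's filterByExpr (minimum count 10, minimum total 15), scaled by TMM and tested with edgeR 4.0.16 (R 4.3.3, quasi-likelihood test, Benjamini-Hochberg over all genes). A call needed an adjusted p under 0.05 and a log2 difference over 1. The 4 mutant comparisons were fitted within their tables, the control comparisons and the EC and macrophage interaction over 18 libraries, and the macrophage interaction over 12. SEs were the fold change divided by the root of F, and intervals are 95%. TPM used union exon lengths of GENCODE vM21. Each count of 0 allows up to 3 counts, counting error only. Likeness was Pearson's r of log2 CPM over 24 libraries. Alternatives were DESeq2 1.42.0, its size factors, library size alone, no filter, a replicate block, an Xist covariate, limma 3.58.1 with mouse as a correlated block, and leaving out each library. Fits were also run on simulated data with changes well past the fold threshold. Those runs say nothing on changes near the threshold or on genes of low count. Named genes were the 6 members, the deleted genes, up to 3 called genes of largest fold per pathway list and comparison, the 5 genes of highest r for Pdgfb and 3 for each other member, and markers whose level stood beside a member. The matrix genes of whole liver were named after their values were seen. The members and lists were chosen with earlier results of these data known.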

Additional observations from a re-analysis of the deposited data

Results flagged for a closer look

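The response to HSC-KO differed between ECs and macrophages, by an interaction term, for 3 of the 6 PDGF genes, all 3 higher in ECs, where 6.07% of all genes tested were (6.26% were lower). The difference of log2 fold changes, ECs minus macrophages, was 2.23 for Pdgfa, 2.31 for Pdgfb and 2.94 for Pdgfd. Pdgfa was called in ECs and not in macrophages (log2 fold changes 2.64 and 0.42), Pdgfb rose in both (4.11 and 1.80), and Pdgfd, which was called in neither (0.73 and -2.25), rested in macrophages on 0 to 26 counts per library.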

How the results depend on the processing

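The 6 genes in 9 comparisons gave 54 tests. Of 300 fits under another setting, 294 kept direction and side of the thresholds, and of 396 fits without 1 library, 368 did. With the Xist covariate 1 member was called in HSC-KO macrophages in place of 2 (Pdgfc at -0.95), and with library size alone 1 in Smad4 cKO macrophages in place of 2 (Pdgfc at -0.85) and Pdgfd was called in ECs (1.02). Without 1 library, 1 to 2 members were called in either macrophage comparison. The sign turned, in genes not called, for Pdgfra in ECs with library size alone (0.13), and in Smad4 cKO macrophages under the replicate block for Pdgfd (0.093) and Pdgfrb (-0.19). Without 1 library the log2 difference ranged across 0 for Pdgfra (-0.24 to 7.64) and Pdgfrb (-0.24 to 0.65) in HSC-KO macrophages, Pdgfd (-0.77 to 0.21) and Pdgfrb (-0.61 to 0.51) in Smad4 cKO macrophages, Pdgfra in ECs (-1.03 to 0.41), Pdgfa between control ECs and liver (-0.59 to 0.12), and Pdgfra between the responses of ECs and macrophages (-7.78 to 0.13). For the HSC-KO minus Smad4 cKO response it ranged from -0.32 to 0.16 for Pdgfa, -0.25 to 0.085 for Pdgfc, -0.92 to 7.05 for Pdgfra and -0.27 to 0.99 for Pdgfrb. The replicate block changed no count of members called. Same-numbered libraries correlated at -0.107 to 0.162 in their deviations, so the numbers were not taken as pairs. Over all genes, liver calls numbered 425, against 821 by DESeq2, 271 under the replicate block and 188 to 451 without 1 library. The macrophage interaction gave 473, against 1108 by DESeq2 and 233 to 556 without 1 library, and Smad4 cKO gave 951, against 566 to 909. Library size alone moved the median of all genes by 0.29 in ECs, 0.16 in Smad4 cKO macrophages and -0.11 in liver. Low counts limit what could be detected for Pdgfc in ECs (15 to 33 per library) and, in macrophages of the HSC-KO experiment, Pdgfd (0 to 26) and Pdgfra (0 to 65). The causes of these changes were not tested.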
